A study of Drosophila melanogaster with 3 samples.

Results

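MicroRNA genes were examined as candidate neighbours of binding sites of the homeodomain protein OdsH. The Ensembl annotation of the fly genome lists 262 microRNA genes among 17873 genes when transposable elements and the separate entries for mature products are left out. Members were chosen by symbol (mir- or let-7), and the same 262 genes carried a precursor microRNA transcript. Of these, 260 lie on the 6 chromosome arms, and 2 (mir-10404-1 and mir-10404-2) lie on ribosomal DNA sequence that was not placed and were not used. The hairpins had a median length of 92 bp, with a range of 50 to 174 bp, and fell into 206 loci when hairpins within 2000 bp of each other were joined. Binding was measured by chromatin immunoprecipitation with sequencing (ChIP-seq), with an antibody to GFP, in whole white prepupae of a transgenic Drosophila melanogaster line stably expressing OdsH with GFP at its C terminus. Males and females were pooled, and the 3 samples were biological replicates of 1 group. No other stage, genotype or untagged line was compared, the tag was carried by every sample, and a whole animal mixes all cell types, so a peak cannot be assigned to a tissue. The measure throughout is the distance from a hairpin to the summit of a peak in the authors' set of 8700 reproducible peaks, selected by irreproducible discovery rate (IDR) on build dm6.

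MicroRNAs are transcribed by RNA polymerase II as long primary transcripts. The hairpin is cut from the primary transcript in the nucleus by Drosha and Pasha, and Dicer-1 then releases the mature strand, which guides Argonaute-1 to target messages through its seed, bases 2 to 8. Because the start of the primary transcript can lie far from the hairpin, distance to the hairpin and distance to the host transcript's start are different questions, and both were measured. White prepupae follow a pulse of the steroid hormone ecdysone, and several fly microRNAs, let-7 among them, are known to act around this transition. OdsH is a paired-class homeodomain protein.

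The mature sequences below are those of the loci on which the results turn, taken from the RefSeq annotation of the same assembly. Capitals mark the seed, and U is written as in RNA. The first pair, from the locus with the strongest peak, share a seed, and so do the next 8, the mir-2 family, known to repress the cell death genes reaper, grim and sickle.
mir-279 3p: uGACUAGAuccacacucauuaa
mir-996 3p: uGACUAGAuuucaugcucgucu
mir-2a-1 3p: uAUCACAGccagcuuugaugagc
mir-2b-2 3p: uAUCACAGccagcuuugaggagc
mir-2c 3p: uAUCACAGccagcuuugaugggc
mir-13a 3p: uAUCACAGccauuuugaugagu
mir-13b-1 3p: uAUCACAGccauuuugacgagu
mir-2b-1 3p: uAUCACAGccagcuuugaggagc
mir-13b-2 3p: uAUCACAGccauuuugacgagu
mir-11 3p: cAUCACAGucugaguucuugc
mir-92a 3p: cAUUGCACuugucccggccuau
mir-92b 3p: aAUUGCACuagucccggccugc
mir-ban 3p: uGAGAUCAuuuugaaagcugauu
mir-282 5p: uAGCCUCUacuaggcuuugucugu
mir-275 3p: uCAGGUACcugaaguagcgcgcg

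Of the 9 hairpins read that carry the mir-2 family seed, 6 had a summit within 2000 bp, and these 6 lay in 2 of the 5 loci. Over all members 20.0% of hairpins and 18.9% of positions had a summit. Hairpins on arm 2R, whose mature sequences were not read, are not in these seed counts. They include mir-6-1, mir-6-2 and mir-6-3, with no summit within 2000 bp, and mir-308, with a summit at 740 bp. Their seeds were not compared. The mature strands of mir-2b-2 (summit at 698 bp) and mir-2b-1 (7588 bp) are printed above with the same letters, as are those of mir-13b-1 (1550 bp) and mir-13b-2 (8559 bp). Hairpins giving the same mature strand therefore stood at different distances from a summit. Both mir-92 hairpins and both hairpins with the mir-279 seed had a summit. None of the 3 hairpins with the seed of mir-9a did.

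Across all members, hairpins were near a summit about as often as any other place on the same arms. An IDR summit lay within 2000 bp of 52 of 260 hairpins (20.0%, exact 95% binomial interval 15.3 to 25.4%), and of 42 of 206 loci (20.4%). Intervals of this kind cover counting error only, and hairpins of a locus often share a summit. When an interval of hairpin length was placed at every position of the 6 arms, 18.9% of placements had a summit within 2000 bp, which corresponds to 49.3 hairpins with placements weighted by arm. Measured at 5' ends, the shares were 27.5% of protein-coding genes, 30.8% of other noncoding RNA genes, 33.1% of snoRNA genes and 32.8% of tRNA genes, all above the hairpins.

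In the replicates' own lists, each limited to its 8700 strongest rows, the shares were 20.0, 19.6 and 17.7% in replicates 1, 2 and 3 (52, 51 and 46 hairpins). Their mean was 19.1% ± 1.24 (SD, n = 3), against 19.0, 19.0 and 19.3% of positions. Hairpins exceeded positions by 1.01 and 0.572 percentage points in replicates 1 and 2 and differed by -1.59 points in replicate 3, so the replicates did not share a direction. The mean difference was -0.00205 percentage points ± 1.40 (SD, n = 3), with an exact two-sided sign-flip permutation test giving p = 1.00, where 3 replicates allow no p below 0.25. All 3 lists placed a summit near 41 hairpins, of which 40 were also near an IDR summit. At least 1 list did so for 61 hairpins, and 198 hairpins had no summit within 2000 bp in the IDR set or in any replicate's 8700 strongest rows.

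The median distance from a hairpin to the nearest IDR summit was 7680 bp, with quartiles of 2605 and 16526 bp. At 500 bp the share of hairpins was 5.77% against 6.52% of positions, and at 1000 bp 11.2% against 11.3%. At wider windows the share of hairpins was the higher. At 5000 bp 37.3% of hairpins had a summit against 34.4% of positions, at 10000 bp 56.9% against 50.3%, and at 20000 bp 79.2% against 66.7%. The difference at 10000 bp was 7.90, 7.96 and 10.4 percentage points in replicates 1, 2 and 3 (mean 8.76 ± 1.43, SD, n = 3; exact two-sided sign-flip permutation test, p = 0.25, the smallest possible). All 3 replicates lay above positions at 5000, 10000 and 20000 bp and below them at 200 bp (-1.13, -0.783 and -0.415 points) and 500 bp (-0.663, -0.364 and -0.379), each with the same smallest exact permutation p of 0.25. The replicate lists score the same hairpins, and each window contains the smaller ones. These SDs and p values therefore describe agreement between lists, not variation between hairpins or loci. At 10000 bp the 5' ends of protein-coding genes and of other noncoding RNA genes stood at 62.7 and 62.0%, above the hairpins, and at 20000 bp at 81.8 and 77.3%, above and below them.

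**Figure D1:**
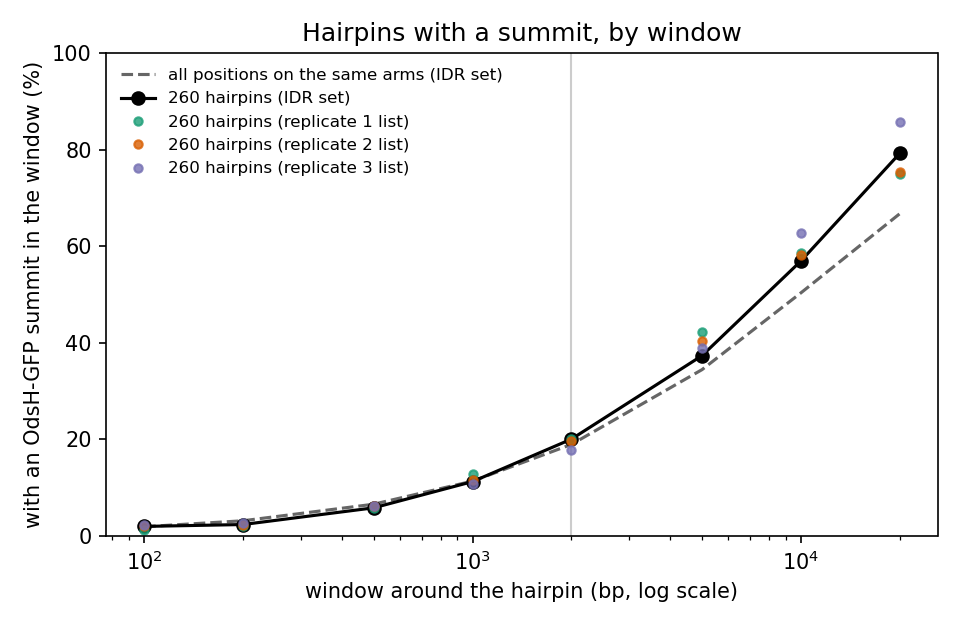
Share of the 260 hairpins (%, vertical) with an OdsH-GFP summit inside a window (bp, logarithmic, horizontal), for the IDR set (black) and the 3 replicate lists (coloured points), with the share of all positions on the same arms (dashed). Hairpins and positions lie together up to 2000 bp (grey line; 20.0 and 18.9%) and stand at 56.9 and 50.3% at 10000 bp. The replicate points score the same hairpins.

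Annotated context was compared next, intronic against intergenic hairpins. Of 117 intronic hairpins 24 had a summit within 2000 bp (20.5%), of 48 intergenic hairpins 8 did (16.7%), and of 95 hairpins overlapping an exon 20 did (21.1%). Counted as loci, these were 22 of 98, 5 of 31 and 16 of 78. The intergenic hairpins mir-310 to mir-313 share a summit. Positions of the same 3 classes gave 22.5, 15.6 and 17.1%. The intronic share exceeded the intergenic share by 3.85 percentage points in the IDR set, and by -1.18, 5.56 and 2.99 points in replicates 1, 2 and 3 (mean 2.46 ± 3.40, SD, n = 3; exact two-sided sign-flip permutation test, p = 0.500, smallest possible 0.25). The sign differed between replicates, and with the stronger 4350 IDR peaks alone the difference was -5.18 points.

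Exonic hairpins were also split by the kind of gene. Hairpins in exons of noncoding genes only had a summit in 13 of 49 cases (26.5%, interval 14.9 to 41.1%), with 26.5, 24.5 and 22.4% in replicates 1, 2 and 3. Hairpins in an exon of a protein-coding gene had one in 7 of 46 cases (15.2%, interval 6.34 to 28.9%), with 13.0, 10.9 and 8.70%. Counted as loci, these were 9 of 33 and 7 of 45, and positions in exons of any gene gave 17.1%. The replicate lists score the same hairpins, so their values show agreement between lists and not a difference between classes. The intervals over hairpins overlapped. This split was made with values in view and was given no test. Within introns, 21 of 99 hairpins on a host's strand (21.2%) and 3 of 18 opposite to every host (16.7%, interval 3.58 to 41.4%) had a summit, and the intervals overlapped.

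**Figure D2:**
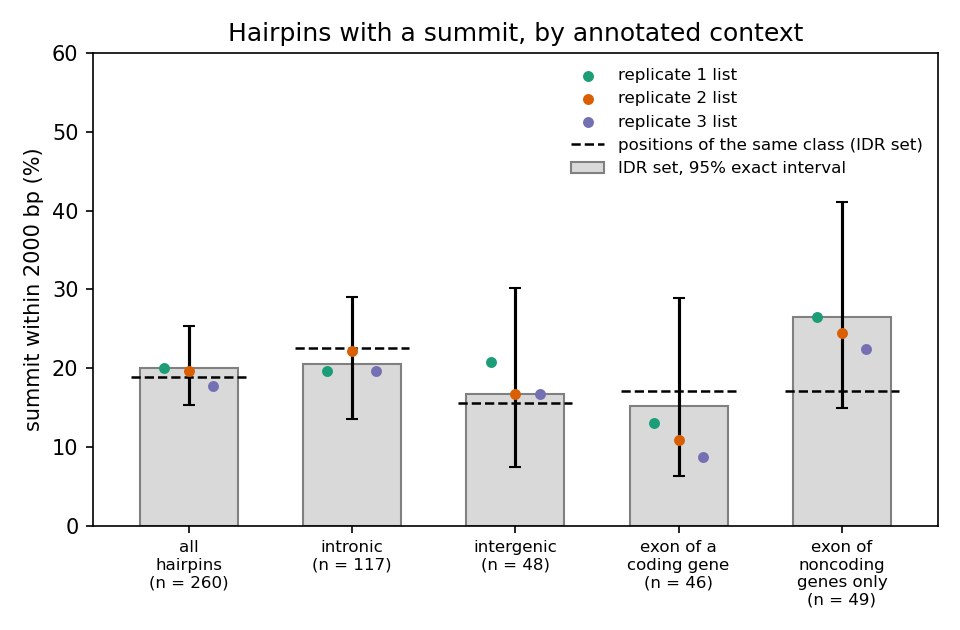
Share of hairpins with a summit within 2000 bp (%, vertical) by annotated context (horizontal, n hairpins each); bars give the IDR set with exact 95% intervals, points the replicate lists and dashed lines the positions of the same class. Positions in exons of coding and noncoding genes were not separated and share 1 value, 17.1%. Hairpins in noncoding exons reached 26.5%, and the intervals of all classes overlap.

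Shares were higher near a protein-coding start for hairpins and positions alike. Of the 110 hairpins within 2000 bp of a protein-coding transcription start site (TSS), 26 had a summit (23.6%, positions 27.3%), and of the 150 farther away 26 did (17.3%, positions 14.7%). The replicate lists gave 23.9% ± 1.05 and 15.6% ± 1.39 (SD, n = 3). By arm, 14 of 55 hairpins on 2R had a summit (25.5%, positions 16.6%) and 8 of 58 on X did (13.8%, positions 20.4%). The replicate lists placed a summit near 14, 12 and 13 of the 2R hairpins and near 9, 10 and 7 of the X hairpins. On 2L, 3L and 3R the counts were 11 of 56, 7 of 31 and 12 of 58, at 19.6, 22.6 and 20.7% against 20.3, 20.1 and 18.1% of positions. Neither hairpin on arm 4 had a summit. These are counts of hairpins, not of loci. On 2R, mir-310 to mir-313 share a summit, and on X a locus of 6 hairpins had none. Differences between arms were not tested.

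Around these 52 hairpins stood 60 IDR peaks, 0.690% of the set. Their median signal value, the authors' own value for the strength of a peak, was 137 against 153 for all IDR peaks, and 25 of the 60 exceeded the overall median. In the replicates' own values the ratio of these medians was 0.875, 0.914 and 0.838 (mean 0.876 ± 0.0378, SD, n = 3), below 1 in all 3. For summits within 1000 or 5000 bp of a hairpin the IDR ratio was above 1, at 1.02 and 1.06. All 3 replicates supported 41 of the 60 (68.3%), against 71.0% of all IDR peaks, where support means overlap with a replicate's 8700 strongest rows. A further 9 were supported by 2 replicates, 9 by 1 and 1 by none. Of the 60 summits, 15 (25.0%) lay within 500 bp of a protein-coding TSS, close to the 27.2% of all IDR summits, and 32 lay in introns, 16 in exons and 12 between genes. The nearest summit was upstream of 29 hairpins, downstream of 21 and inside 2.

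**Figure D3:**
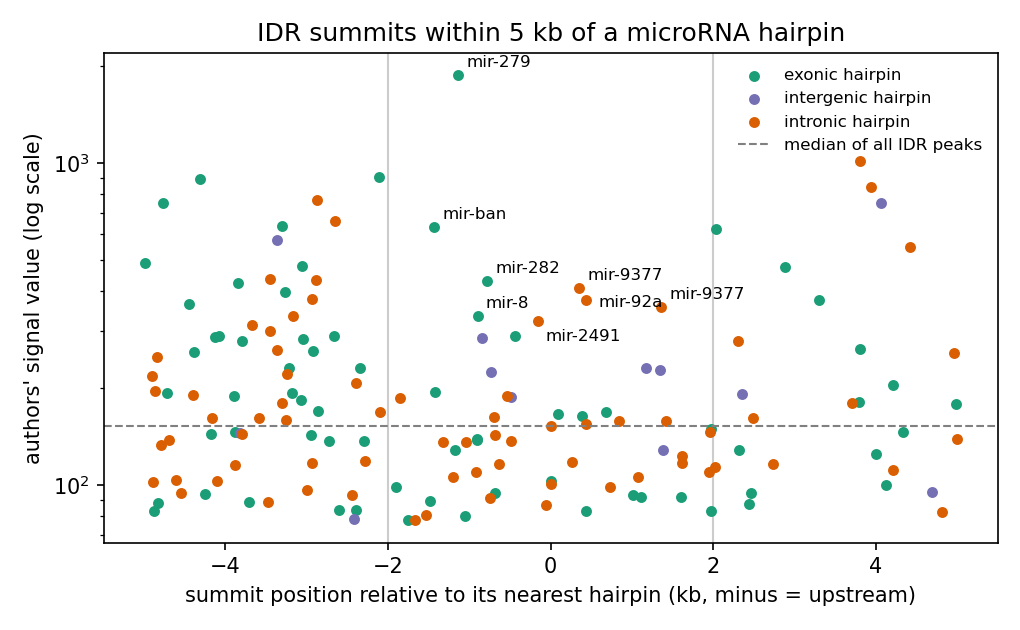
Authors' signal value (logarithmic, vertical) of each IDR summit within 5 kb of a hairpin against its position relative to the nearest hairpin (kb, horizontal, minus for upstream), coloured by hairpin context; grey lines mark 2000 bp and the dashed line the median of all IDR peaks, 153. The mir-279 summit, at 1869, stands above all others inside the window, and the next, at mir-ban, reaches 631.

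The strongest summit near any hairpin belonged to mir-279 and mir-996, which are known to limit the formation of carbon dioxide-sensing neurons. Their hairpins lie in an exon of the noncoding transcript lncRNA:CR31044, at chr3R:29215585-29215684 and chr3R:29217184-29217280 on the plus strand. The peak (chr3R:29214190-29214626) had its summit 118 bp upstream of that transcript's start and 1141 bp upstream of mir-279. Its signal value was 1869, rank 23 of the 8700 IDR peaks. In replicates 1, 2 and 3 the signal values were 538, 808 and 522 and the ranks 15, 21 and 36, so all 3 placed it among their strongest rows. The nearest protein-coding TSS, of eEF1gamma, was 5728 bp away. A much weaker summit (signal value 93.3, rank 7358, supported by 1 replicate) lay 1010 bp downstream of mir-996. The 101 bases centred on the strong summit, plus strand, chr3R:29214394-29214494, are shown because they carry the strongest peak near a microRNA:
mir-279 summit: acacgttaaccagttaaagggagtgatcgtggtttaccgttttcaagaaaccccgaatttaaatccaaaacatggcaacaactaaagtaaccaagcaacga

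That window holds neither TAATTA nor TAATTG on either strand, words of the type that many homeodomains bind. Among the 60 windows near hairpins, 4 held TAATTA (6.67%) and 6 held TAATTG (10%), against 10.8 and 11.5% of all IDR windows. TATCGATA, the core of the DNA replication-related element of housekeeping promoters, was in 0 of the 60 and in 0.701% of all. The windows had a GC content of 33.6% ± 8.46 (SD over 60 windows), and all IDR windows averaged 31.8%.

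bantam (mir-ban), a microRNA that promotes growth and represses the cell death gene hid, lay among several summits of differing strength. Its hairpin (chr3L:642208-642288, plus strand) is in an exon of lncRNA:CR43334. The transcript, 15466 bp long, and 3000 bp to either side held 9 IDR summits with signal values from 104 to 631. Every replicate supported all 9. A summit of signal value 623 (rank 450) lay 2027 bp downstream of the hairpin, just outside the 2000 bp window. Over all IDR peaks the median signal value was 153, and 71.0% were supported by every replicate. How many summits other stretches of this length hold was not counted. The strongest of the 9, 1435 bp upstream of the hairpin, ranked 439 in the IDR set. It had signal values of 153, 289 and 179 in replicates 1, 2 and 3 and ranks of 544, 377 and 560. A second summit within 2000 bp stood 380 bp downstream of the hairpin (signal value 164, rank 3993). The windows of both summits are printed because each holds a word of the homeodomain type, marked in capitals (plus strand, chr3L:640723-640823 and chr3L:642618-642718; the first word is TAATTG read on the other strand):
mir-ban upstream summit: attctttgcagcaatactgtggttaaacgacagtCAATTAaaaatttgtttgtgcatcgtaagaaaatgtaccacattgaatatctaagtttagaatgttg
mir-ban downstream summit: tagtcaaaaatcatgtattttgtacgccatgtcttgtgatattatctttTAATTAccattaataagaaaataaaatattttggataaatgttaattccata

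The 12 strongest summits near hairpins fell in 11 loci, and all 12 were supported by every replicate. Their signal values ran from 1869 to 227 and their IDR ranks from 23 to 2601. Of the 12, 5 lay within 500 bp of a TSS of any gene and 2 within 500 bp of a protein-coding TSS. mir-282, in lncRNA:CR43626, followed bantam with a summit 781 bp upstream of the hairpin (signal value 430; 127, 191 and 116 in replicates 1, 2 and 3). An intron of Tis11, which encodes an RNA-binding protein that destabilises messages, held mir-9377 with summits 353 and 1354 bp downstream (signal values 409 and 357). mir-92a, in an intron of jigr1, had a summit 430 bp downstream of the hairpin and 216 bp upstream of a jigr1 TSS (signal value 374). Its relative mir-92b, in the same gene, had a summit at 87 bp (signal value 166).

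mir-8, a regulator of growth through insulin signalling, had a summit 898 bp upstream of its hairpin and 155 bp upstream of a start of its host lncRNA:CR43650 (signal value 334, ranks 1410, 1372 and 1875 in replicates 1, 2 and 3). mir-2491, in introns of fog and CG42346, had one at 161 bp (signal value 324), and mir-275 with mir-305 one 435 bp upstream of mir-275 (signal value 291). mir-4981 (286), the cluster of mir-310 to mir-313 (230) and mir-2496 (227) completed the set. mir-4981 varied most in rank between replicates, at 3641, 2498 and 1037, and mir-279 ranked between 15 and 36. The cluster shared 1 summit, 1177 bp from mir-310, in an intron of qsm and 443 bp upstream of a qsm start.

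**Figure D4:**
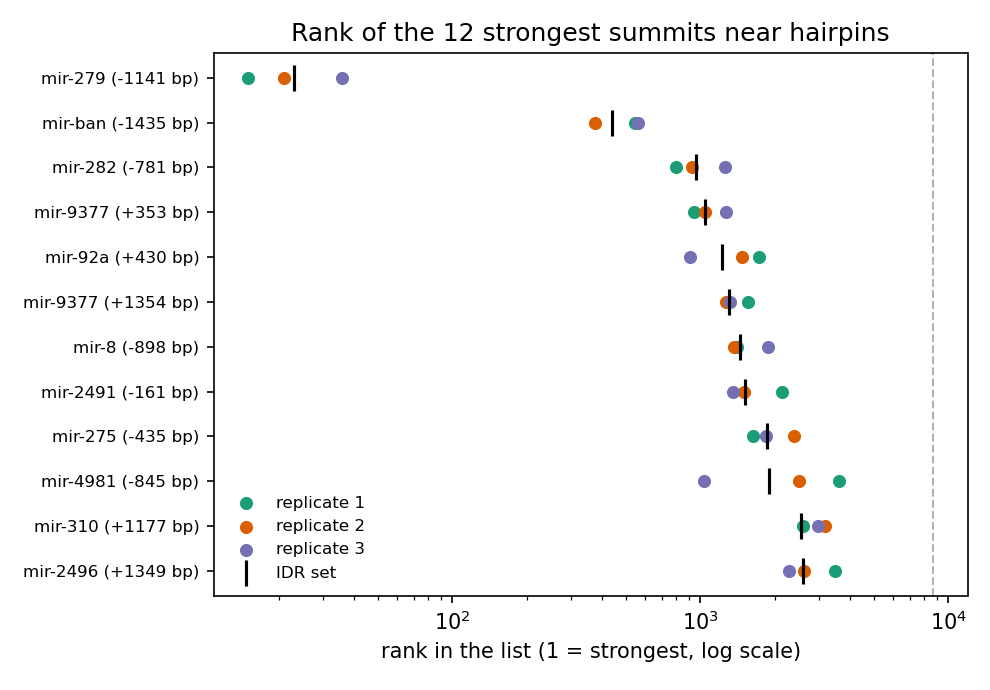
Rank (logarithmic, horizontal; 1 is the strongest) of the 12 strongest summits near hairpins in the 3 replicate lists (points) and the IDR set (bars), labelled by nearest hairpin and distance (minus for upstream). All points lie left of the dashed line at rank 8700, and only mir-279 lies within the first 100 ranks in every list (15, 21 and 36).

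Distance to the start of the host transcript was measured next, with let-7 as an example. The let-7, mir-100 and mir-125 hairpins, which time the passage to adult form, had no summit within 2000 bp. The nearest, 2605 bp upstream of mir-100, was weak (signal value 83.9, rank 8104). Their shared transcript lncRNA:let7C (chr2L:18455717-18473132) starts 15717 bp upstream of mir-100, and 8 IDR summits lay inside it, 5 of them supported by all replicates. Here too, the number held by other transcripts of this length was not counted. The summit nearest the start of lncRNA:let7C lay 549 bp downstream of it, with a signal value of 325 and rank 1505. In replicates 1, 2 and 3 its signal values were 92.6, 161 and 74.0 and its ranks 1419, 1224 and 2513. The window at that summit (plus strand, chr2L:18456216-18456316) holds neither TAATTA nor TAATTG and is printed with the mature strands of the 3 hairpins it precedes. Capitals in the latter mark the seed:
let7C summit: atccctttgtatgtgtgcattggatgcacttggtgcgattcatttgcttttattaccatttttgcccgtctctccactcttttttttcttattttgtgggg
mir-let7 5p: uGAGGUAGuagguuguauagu
mir-100 5p: aACCCGUAaauccgaacuugug
mir-125 5p: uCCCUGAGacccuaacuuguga

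**Figure D5:**
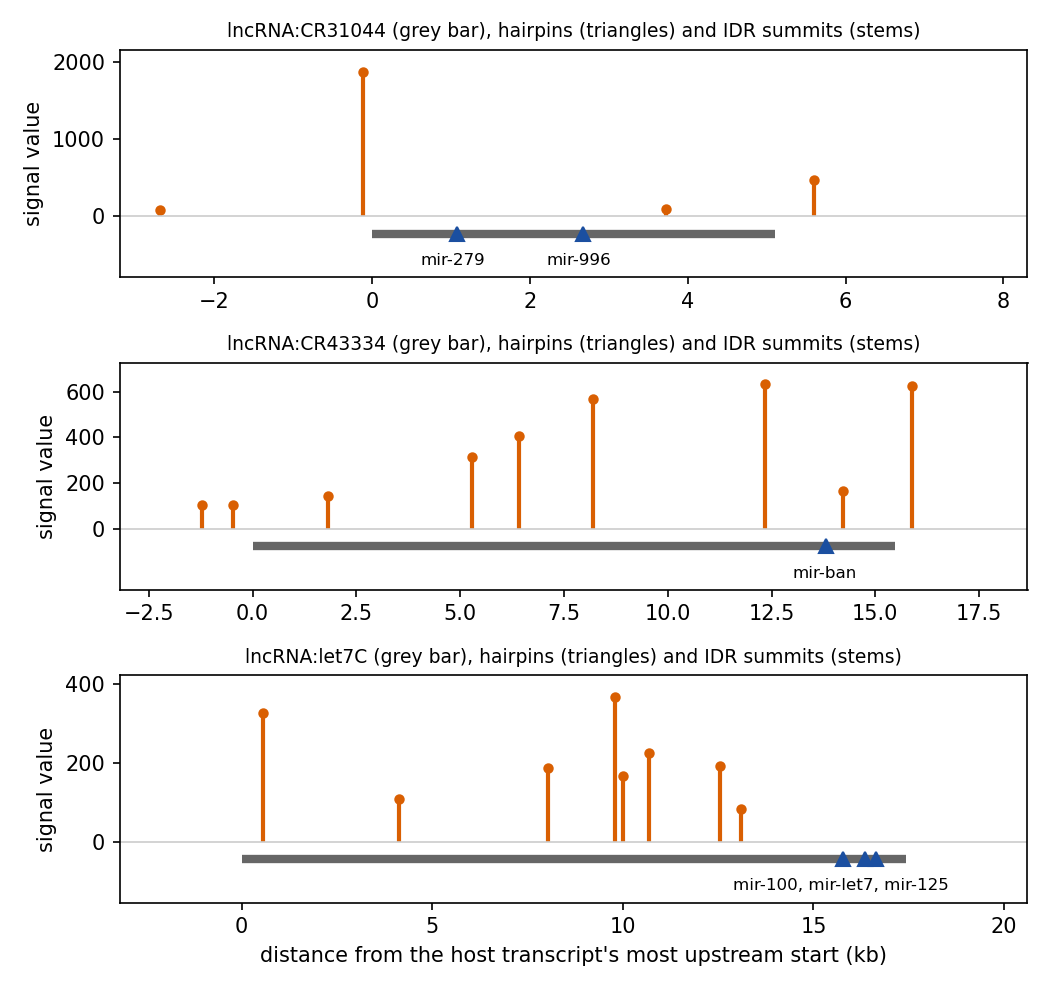
IDR summits (stems, authors' signal value, vertical) around 3 noncoding host transcripts (grey bars) and their hairpins (triangles), by distance from the transcript's most upstream start (kb, horizontal). The summit of 1869 stands at the start of lncRNA:CR31044, summits of up to 631 run through lncRNA:CR43334, and 8 summits lie inside lncRNA:let7C upstream of its hairpins.

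Over all hosts, an IDR summit lay within 1000 bp of any TSS for 13 of 38 noncoding hosts (34.2%, interval 19.6 to 51.4%), against 20.7% of all noncoding RNA genes. The replicate lists gave 31.6, 31.6 and 34.2% (mean 32.5% ± 1.52, SD, n = 3), against a mean of 20.8% ± 0.0687. For protein-coding hosts the count was 51 of 130 (39.2%, interval 30.8 to 48.2%), against 23.0% of all protein-coding genes, and 41.8% ± 1.18 against 25.6% ± 1.06 in the replicates. Protein-coding hosts had a median of 2 TSSs and 13462 bp, against 1 TSS and 2166 bp for all protein-coding genes. Noncoding hosts had a median of 1 TSS, as did all noncoding RNA genes, and 6087 bp against 706 bp. The part of length in these shares was not tested. Among protein-coding genes with a single TSS, 9 of 58 hosts (15.5%) had a summit, against 16.4% of all such genes. Among noncoding genes with a single TSS, 7 of 24 hosts (29.2%) did, against 20.2%. This comparison was chosen after values were seen and has no test.

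Of the 13 noncoding hosts with a summit near a start, 8 also had 1 near a hairpin and 5 did not. The strongest was lncRNA:CR31044, described above. lncRNA:CR43626, the host of mir-282, followed with a summit 433 bp upstream of a start (signal value 902, rank 185, ranks 133, 274 and 145 in the replicates), which lay beyond 2000 bp from the hairpin. lncRNA:CR43650 had its strongest 719 bp upstream (signal value 478). lncRNA:Hsromega, a heat shock-induced transcript that holds mir-4951, had one 214 bp downstream (443), and lncRNA:CR45916, the host of mir-9a, had its strongest 771 bp upstream (398). lncRNA:CR43651, the host of mir-14, a regulator of cell death, fat metabolism and ecdysone receptor levels, had a summit 15 bp downstream of its start (signal value 139, rank 4816). lncRNA:CR46006, the host of mir-276a, had one 487 bp upstream of 1 of its 4 starts (285).

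Among protein-coding hosts the strongest such summit was at Btk, a tyrosine kinase gene that holds mir-2b-1, 161 bp upstream of a start (signal value 1249, rank 70, ranks 71, 51 and 137 in the replicates). spi, which encodes the EGF receptor ligand Spitz and holds mir-2a-1, mir-2a-2 and mir-2b-2, had one 215 bp upstream of a start (signal value 841, rank 233). grp, which holds mir-9b, mir-9c, mir-79 and mir-306, had one 980 bp upstream (718). E2f1, which encodes a cell cycle regulator and holds mir-11 and mir-998, had one 278 bp upstream (201). None of the hairpins in Btk, grp or E2f1 had an IDR summit within 2000 bp.

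Members were also grouped by known role, and each count is read against the 18.9% of positions and the 20.0% of all hairpins. Of the microRNAs linked to cell death and growth, 9 of 18 had a summit, in 5 of 12 loci: mir-ban, mir-14, mir-308 and the 2 clusters with mir-2a-1, mir-2a-2 and mir-2b-2 and with mir-2c, mir-13a and mir-13b-1. The mir-2b-2 cluster shared a summit in an intron of spi (signal value 163; 45.7, 65.6 and 47.4 in the replicates), and the mir-2c cluster shared one in lncRNA:CR45911 (128; 39.7, 46.5 and 42.7). The other 9 had their nearest summit at up to 13178 bp, and mir-bft, listed elsewhere as mir-263a, had one of signal value 376 at 3301 bp. Of 6 linked to hormone signalling and metabolism, mir-8 and mir-14 had a summit, and mir-34, known for ageing, had its nearest at 10875 bp. Of 12 linked to the nervous system, mir-279, mir-996 and mir-282 did, while mir-124, a neuronal microRNA, was 8133 bp from the nearest.

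Several groups had no member near an IDR summit. These were the let-7 complex (0 of 3), the Hox cluster microRNAs (0 of 4), mir-7 with the mir-9 group (0 of 5) and mir-1, the muscle microRNA, whose nearest summit was 7272 bp away. mir-iab-4 and mir-iab-8, which repress Hox genes from opposite strands of 1 hairpin, were 5074 bp from the nearest. The cluster of mir-309 to mir-6, which clears maternal messages in the early embryo, had none in its 8 hairpins, at 12891 to 13881 bp. The testis clusters had none in 18 hairpins of 6 loci, at 17011 to 46756 bp, a median of 24446 bp. Hairpins of 1 locus often share their nearest summit, so these are counts of few loci. Loci of 2 or more hairpins had a summit in 7 of 26 cases and single hairpins in 35 of 180.

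The hairpins of mir-4974 and mir-4962 contained a summit themselves. These 2 of 260 hairpins (0.769%) compare with 0.596% of positions, and the replicate lists placed a summit inside 0, 3 and 2 hairpins, so the count is near the background. mir-4974 (chr2L:21263933-21264034, plus strand) lies in an intron of CG8671, and its summit had a signal value of 153 with 31.0, 63.3 and 47.4 in replicates 1, 2 and 3. mir-4962 (chrX:3777382-3777505, plus strand) lies in an intron of the kinase gene Tlk, and its summit was weaker (signal value 101; 24.3, 41.3 and 30.4). Both were supported by all 3 replicates. A further 3 hairpins were overlapped by a peak without holding its summit. The 101 bases at both summits, plus strand, are printed with the mature 5p strand in capitals, because here the precipitated site and the microRNA share sequence (chr2L:21263896-21263996 and chrX:3777343-3777443):
mir-4974 summit: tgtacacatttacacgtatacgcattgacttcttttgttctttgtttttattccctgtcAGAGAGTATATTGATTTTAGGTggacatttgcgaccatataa
mir-4962 summit: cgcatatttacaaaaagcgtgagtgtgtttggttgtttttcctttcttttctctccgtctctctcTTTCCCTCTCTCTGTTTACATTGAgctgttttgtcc

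At the edge of the 2000 bp window, mir-281-2 (1973 bp) and mir-2489 (1975 bp) lay just inside, and mir-1013 (2022 bp) and mir-2498 (2134 bp) just outside. The strongest neighbours of some members also fell just outside, such as the lncRNA:CR43626 summit above. The 3 copies of mir-10404 on X, a microRNA that also has copies on ribosomal DNA sequence, stood farthest from a summit, mir-10404-5 at 466699 bp. Below the IDR threshold, the authors' longer pooled list of 30000 rows placed a summit within 2000 bp of 52 of the 208 hairpins that had no IDR summit. The remaining 156 hairpins had none in that list either. With the pooled list 104 hairpins (40.0%) had a summit, against 44.0% of positions.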

How the data were processed

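The authors deposited ChIP-seq peak lists on builds dm6 and dm3 for 3 biological replicates, and the 5 dm6 lists were used. Per the deposited file lists, each dm6 replicate list came from its own alignment and 1 further file shared by all 3, the pooled list from the 3 alignments and 2 further files, and the optimal IDR set from the pooled and replicate lists, so overlap between them is partly built in. Which aligner and peak caller were used is not given in the sources used here. Each deposited signal value is the authors' own, its scale is not stated, and it was compared only within 1 list. Reads were not analysed here, so the depth is unknown and no value rests on an interval that needs it. The replicates are biological per the labels.

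Hairpin and gene coordinates were read from Ensembl release 115 (BDGP release 6, the same sequence as dm6), and all 260 hairpins lay at the same coordinates in RefSeq, which gave sequences. Hairpins on arm 2R were counted but their mature sequences were not read. The word and GC counts covered all 60 windows near hairpins, those on 2R included. A summit was the deposited start plus the summit offset, written 1-based, and the distance to a hairpin was 0 inside it. The position share over all members is an exact count over all placements of intervals of the hairpins' own lengths, weighted by the members' arms. Position shares by context or by distance to a TSS used the median hairpin length on all arms, without weights. Each replicate list was limited to its 8700 strongest of 30000 rows. Support needed 1 bp of overlap. A hairpin was exonic if it touched an exon of a gene other than a microRNA, intronic if it lay in such a gene only, and otherwise intergenic. Both strands of the 101 bp around each summit were searched for words. The position count was tested on simulated data against brute force. Intervals are Clopper-Pearson at 95%. Tests over replicates are exact two-sided sign-flip permutation tests. Named members were the loci of the 12 strongest summits within 2000 bp of a hairpin, the members of 9 role lists, and the 2 hairpins to either side of 2000 bp. The genes, lists and rules were chosen with earlier results of these data known, and the host transcript comparison was added after values were seen. The symbols ban and bantam did not match and mir-ban was used. Python 3.11.15, numpy 2.4.6, pandas 2.3.3 and scipy 1.17.1 were used.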

Additional observations from a re-analysis of the deposited data

How the results depend on the processing

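The share of hairpins with a summit (20.0%) followed the window and the peak set, at 5.77% for 500 bp, 11.2% for 1000 bp, 37.3% for 5000 bp, 9.62% with the stronger 4350 peaks, 15.4% with peaks supported by all 3 replicates, 40.0% with the pooled list and 17.3% for hairpins farther than 2000 bp from a protein-coding TSS. Its ratio to positions (1.06) was 0.885 at 500 bp and 0.897 with the stronger peaks, and, in alternatives chosen after seeing the data, 0.909 with the pooled list and 1.18 far from protein-coding TSSs, so its side of 1 depended on the setting. Intronic minus intergenic (3.85 points) was 8.28 at 1000 bp, 13.9 at 5000 bp, -5.18 with the stronger peaks, 0.427 with peaks supported by all 3 and 16.4 far from TSSs. Leaving out each replicate in turn gave shares of 15.4 to 16.9%, ratios of 1.00 to 1.14 and intronic minus intergenic differences of 0.427 to 1.28, all from peaks supported by both remaining replicates, a stricter set. The mean hairpin minus position difference ran from -0.510 to 0.793 points and turned positive without replicate 3. Joining hairpins into loci at 2000 or 10000 bp moved the share to 20.4 and 20.7%. With these loci the intronic minus intergenic difference was 6.32 and 5.21 points. Support by all 3 (68.3%) was 45.0% with a reciprocal overlap of 50% (48.9% of all IDR peaks) and 96.7% with full lists (96.1%). The median signal ratio in the IDR set (0.901) was 1.02 at 1000 bp and 1.06 at 5000 bp, so of the 3 windows run it was below 1 only at 2000 bp. The mean of the replicates' own ratios (0.876) was 0.857 to 0.894 with a replicate left out. The cause of these shifts was not tested. No paired analysis was possible because the samples form 1 group. The unknown depth and the single group limit every value to this peak set.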
